A study of Drosophila melanogaster with 6 samples.

Results

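The genes described here are the fly orthologues of human neurodegeneration genes, together with factors that fly neurons need to stay intact. They were chosen by name, as a list of 10 symbols, with no rule on measured values, though earlier results of these data were known. Of these 10 genes, 7 had a row in the table of 15886 gene and transcript rows, namely Appl, TBPH, Atx2, Lrrk, Nmnat, sws and iPLA2-VIA. The current FlyBase identifiers of the other 3, tau, Psn and caz, matched no row, so these genes are not analysed here. RNA came from heads of adult Drosophila melanogaster carrying TubGS, a tubulin-promoter GeneSwitch driver that is active in most tissues once the drug RU486 is in the food. In 3 libraries (RNAi-GLAD) the driver switched on RNA interference with a construct called GLAD, and in the other 3 (RNAi-Ctrl) with a construct against GFP, both groups being on RU486 and collected on day 7 of induction. Each library pooled tissue of 100 flies, and the labels name the tissue a head but the extraction a brain. They do not say whether replicates came from separate crosses, so the spread behind each p-value may be technical.

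The listed genes act at several points where neurons fail in disease. Appl encodes the fly amyloid precursor protein-like receptor, a membrane protein of neurons, and Psn (presenilin) is the catalytic subunit of gamma-secretase, which cuts such proteins within the membrane. TBPH and Atx2 are RNA-binding proteins, the orthologues of TDP-43 and ataxin-2, which in humans are linked to amyotrophic lateral sclerosis, frontotemporal dementia and spinocerebellar ataxia. The tau gene encodes a microtubule-associated protein, and Lrrk a large kinase with a GTPase domain related to the Parkinson disease kinase LRRK2. Nmnat makes NAD and protects axons from degeneration, while sws and iPLA2-VIA are phospholipid-cleaving enzymes, orthologues of PNPLA6 (neuropathy target esterase) and PLA2G6. Loss of sws leaves vacuoles in the ageing fly brain, and PLA2G6 is mutated in infantile neuroaxonal dystrophy and in a form of parkinsonism.

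Some facts about the libraries bear on every value below. Photoreceptor RNA was abundant: ninaE, the opsin of the outer photoreceptors, was the highest value of the table in 6 of 6 libraries, and the neuron gene elav was at 25.4 to 28.8 FPKM, so the samples held photoreceptor RNA as a head would. FPKM is the number of fragments scaled to the length of the gene and the size of the library. The steps between low values implied totals of 22.1 to 29.5 M fragments per library. The libraries numbered 3 went against their labels: lncRNA:CR40469, an X-linked noncoding RNA, was at 4.20, 4.77 and 1718 FPKM in RNAi-GLAD 1, 2 and 3, against 1935, 2198 and 5.86 FPKM in RNAi-Ctrl 1, 2 and 3. The X-linked CG32641 and sordd2 were at 0 FPKM in RNAi-GLAD 1, RNAi-GLAD 2 and RNAi-Ctrl 3, and at 25.7 to 34.0 FPKM in the others. For 75.1% of all tested genes the difference in the libraries numbered 3 had the opposite sign to that in the libraries numbered 1 and 2. The result of each member is therefore given for all 6 libraries as labelled and for the 4 libraries numbered 1 and 2, and the libraries are named by their labels throughout. The gene that GLAD stands for is not named in the labels, so no check of the knockdown was made.

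By level, the median of Appl was 18.4 times that of Lrrk, the highest and the lowest of the 7 genes. Appl (X chromosome, 530501 to 579044, plus strand, BDGP6) had 169, 172 and 174 FPKM in RNAi-GLAD 1, 2 and 3, against 187, 183 and 163 FPKM in RNAi-Ctrl 1, 2 and 3, with RNAi-Ctrl 3 the lowest. Its median of 173 FPKM lay above that of 94.6% of the 9631 genes with a mean of at least 1 FPKM. Atx2 followed with a median of 55.2 FPKM, then sws with 47.0, iPLA2-VIA with 39.5, TBPH with 38.9, Nmnat with 31.9 and Lrrk with 9.40 FPKM. The ranges over the 6 libraries did not overlap between Appl and Atx2, between TBPH and Nmnat, or between Nmnat and Lrrk. Atx2 and sws had overlapping ranges, yet Atx2 was the higher gene in 6 of 6 libraries. The place of iPLA2-VIA in this order was not fixed, since it was above TBPH in 3 of 6 libraries and below sws in 3 of 6.

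**Figure D1:**
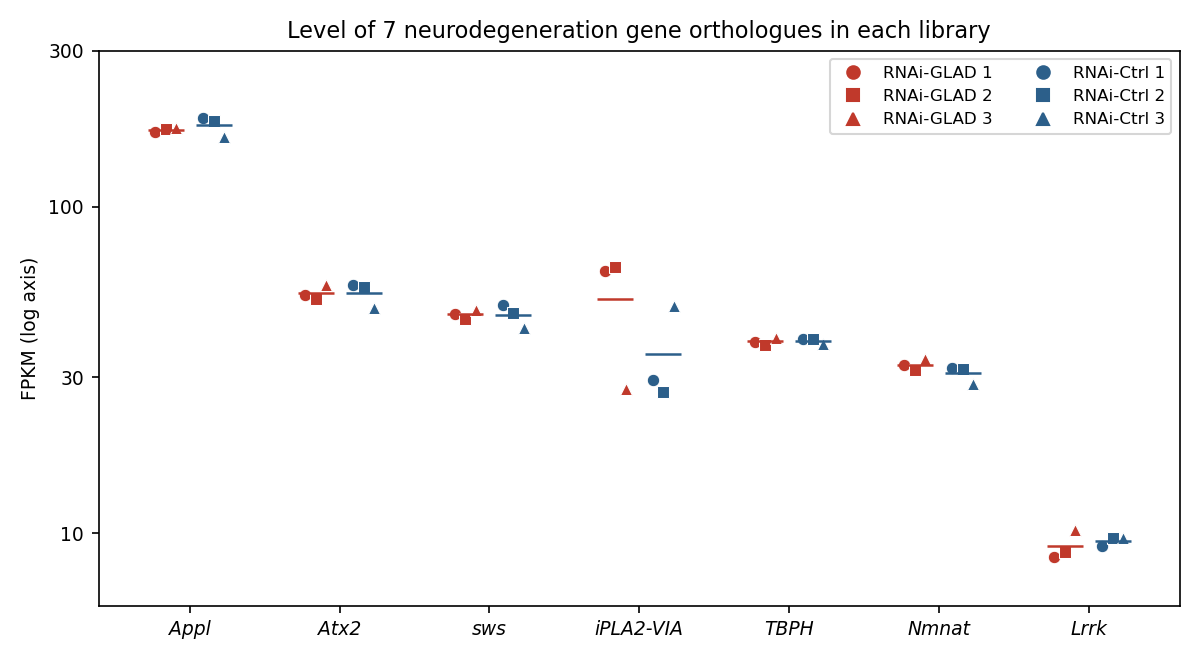
FPKM on a log axis of the 7 genes in each library, with RNAi-GLAD in red and RNAi-Ctrl in blue, the replicate number as the symbol and a line at the mean of each group (n = 3). The genes other than iPLA2-VIA stay within a narrow band, while iPLA2-VIA averages 64.5 FPKM in RNAi-GLAD 1 and 2 and 28.2 FPKM in RNAi-Ctrl 1 and 2, with the libraries numbered 3 the other way round.

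The phospholipid enzyme iPLA2-VIA was the one gene of the 7 with a large difference between libraries. iPLA2-VIA (3L, 9860217 to 9864349, minus strand), a calcium-independent phospholipase A2, had 63.6, 65.4 and 27.6 FPKM in RNAi-GLAD 1, 2 and 3, against 29.4, 27.1 and 49.5 FPKM in RNAi-Ctrl 1, 2 and 3. RNAi-GLAD 1, RNAi-GLAD 2 and RNAi-Ctrl 3 were the high libraries, and the labelled groups overlapped. As labelled the means were 52.2 ± 21.3 FPKM in RNAi-GLAD and 35.3 ± 12.3 FPKM in RNAi-Ctrl (SD, n = 3 each), a difference of 0.50 ± 0.39 on the log2(FPKM + 1) scale (SE; adjusted p = 0.999, limma). In the libraries numbered 1 and 2 iPLA2-VIA rose to 64.5 ± 1.26 FPKM in RNAi-GLAD, against 28.2 ± 1.67 FPKM in RNAi-Ctrl (SD, n = 2 each), a 2.28-fold difference of means. On the log2(FPKM + 1) scale that difference was 1.16 ± 0.06 (SE; 95% interval 1.00 to 1.33), with an adjusted p of 0.0105 by limma, the 27th smallest p of 9661 genes.

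The call for iPLA2-VIA did not hold in every alternative. Its log2 difference was 1.22 without RNAi-Ctrl 1, 1.11 without RNAi-Ctrl 2, 1.18 without RNAi-GLAD 1 and 1.14 without RNAi-GLAD 2. The call was lost when either control was left out and kept when either RNAi-GLAD library was. Each of these fits leaves 1 library in a group, assumed to vary like the other group. Nearly all calls of the table were lost with either control, so the loss was not peculiar to iPLA2-VIA. With RNAi-GLAD 1 paired to RNAi-Ctrl 2 and RNAi-GLAD 2 to RNAi-Ctrl 1 as a block, an alternative chosen after seeing the data, the difference was 1.16 with an adjusted p of 0.0604. These 4 libraries were singled out after values of the whole table were known, so the adjusted p describes them and is no independent repeat. In the libraries numbered 3 the sign was the opposite, with RNAi-GLAD 3 below RNAi-Ctrl 3 by 0.82 log2 units (a difference of -0.82, 1 library each). Set between the means of RNAi-Ctrl 1 and 2 (0%) and of RNAi-GLAD 1 and 2 (100%) on the log2 scale, RNAi-GLAD 3 stood at -2.51% and RNAi-Ctrl 3 at 67.9% for this gene. Over the 527 genes called in the 4 libraries, the medians of the same measure were 9.80% for RNAi-GLAD 3 and 96.7% for RNAi-Ctrl 3. RNAi-Ctrl 3 was thus less far along for iPLA2-VIA than for most called genes, with 16.3% of them lower still.

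Of the genes beside iPLA2-VIA on 3L, 2 were also called, with smaller differences. Within 50 kb on either side lay 15 other genes of the table, of which 12 were tested in the 4 libraries, 2 were called higher in RNAi-GLAD and 0 lower, which is 16.7% beside 5.45% of all tested genes. As labelled, limma called none of the table. The nearest neighbours were Ciz1, 0.29 kb away, at 80.9 FPKM in RNAi-GLAD and 82.1 FPKM in RNAi-Ctrl (means of 2, log2 difference -0.02 ± 0.06), and CG10809, 0.328 kb away, at 11.3 FPKM in RNAi-GLAD and 9.65 FPKM in RNAi-Ctrl (0.20 ± 0.08), and limma called neither. The called neighbours were I-2, which encodes an inhibitor of protein phosphatase 1 and lies 23.4 kb away (0.51 ± 0.05, adjusted p = 0.0213), and CG6707, 30.5 kb away (0.31 ± 0.05, adjusted p = 0.0482). The median difference of the 12 genes was 0.05, against 1.16 for iPLA2-VIA.

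**Figure D2:**
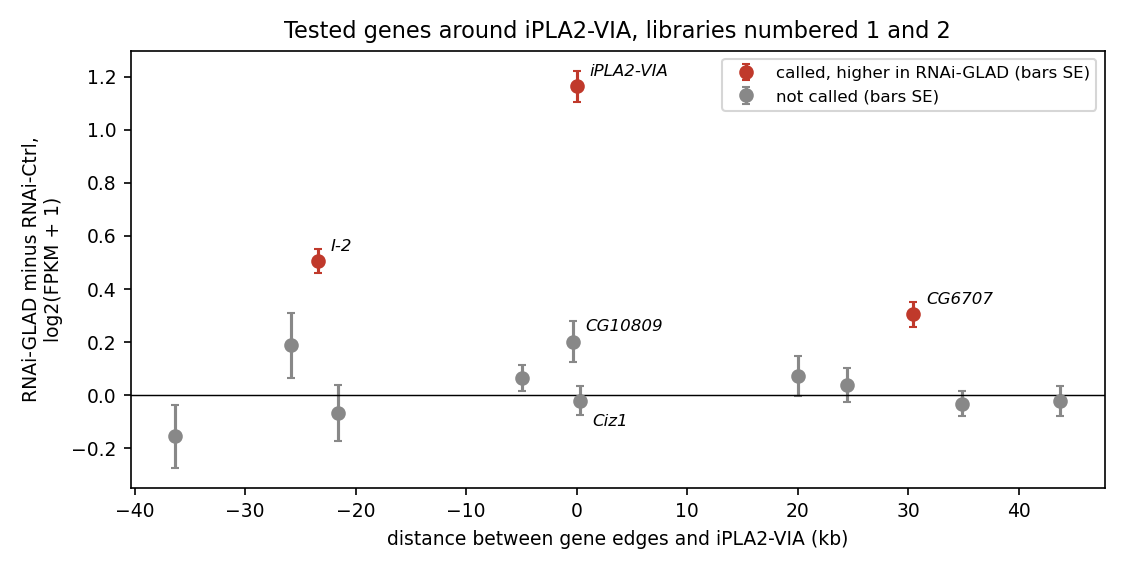
Difference between RNAi-GLAD 1 and 2 and RNAi-Ctrl 1 and 2 on the log2(FPKM + 1) scale (bars, SE) of iPLA2-VIA and the 12 tested genes within 50 kb, against the distance between gene edges. iPLA2-VIA is at 1.16 and the next gene, I-2, at 0.51, while Ciz1 and CG10809 next to iPLA2-VIA are not called.

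The second phospholipase, sws (X, 7956820 to 7968236, minus strand), had 46.8, 45.1 and 48.3 FPKM in RNAi-GLAD 1, 2 and 3, against 50.0, 47.2 and 42.4 FPKM in RNAi-Ctrl 1, 2 and 3. RNAi-Ctrl 3 was its lowest library, and the labelled groups overlapped. Their difference was 0.01 ± 0.08 (SE; adjusted p = 0.999, limma), and in the libraries numbered 1 and 2 it was -0.08 ± 0.05 (adjusted p = 0.438). Exons of sws share 119 bp with sn on the opposite strand, which averaged 48.6 FPKM, and whether the counting used strand is not stated in the labels, so reads of the shared part cannot be told apart.

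Of the receptor and RNA-binding proteins none was called. The highest and lowest libraries lay 13.5% of the median apart for Appl and 15.7% for Atx2. Counting error alone gives an SD per library of 0.57% to 0.64% for Appl and 1.10% to 1.21% for Atx2. As labelled the differences were -0.04 ± 0.07 for Appl, -0.0075 ± 0.0498 for TBPH and 0.0062 ± 0.0825 for Atx2 (SE), each with an adjusted p of 0.999 by limma. In the libraries numbered 1 and 2 Appl averaged 171 ± 2.16 FPKM in RNAi-GLAD and 185 ± 2.62 FPKM in RNAi-Ctrl (SD, n = 2 each), without overlap. Its log2 difference was -0.11 ± 0.04 (SE), which limma did not call (adjusted p = 0.223). TBPH (2R, 23859067 to 23862593, minus strand) had 38.6, 37.7 and 39.7 FPKM in RNAi-GLAD 1, 2 and 3, against 39.4, 39.2 and 38.0 FPKM in RNAi-Ctrl 1, 2 and 3. It was the steadiest of the 7 genes, its highest and lowest libraries lying 5.22% of the median apart. Counting error alone gives an SD of 1.66% to 1.91% per library, and a range over 6 libraries is wider than 1 SD. Atx2 (3R, 15408423 to 15417277, plus strand) had 53.6, 52.3 and 57.4 FPKM in RNAi-GLAD 1, 2 and 3, against 57.3, 56.8 and 48.8 FPKM in RNAi-Ctrl 1, 2 and 3. Its high libraries were RNAi-GLAD 3, RNAi-Ctrl 1 and RNAi-Ctrl 2, so that the labelled means were nearly equal (54.4 ± 2.67 FPKM in RNAi-GLAD and 54.3 ± 4.82 FPKM in RNAi-Ctrl, SD, n = 3 each). In the libraries numbered 1 and 2 the difference was -0.11 ± 0.04 for Atx2 (adjusted p = 0.236) and -0.04 ± 0.04 for TBPH (adjusted p = 0.612, limma).

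The kinase and the NAD enzyme were likewise not called. Lrrk (3R, 20635480 to 20644279, plus strand) had 8.46, 8.79 and 10.3 FPKM in RNAi-GLAD 1, 2 and 3, against 9.14, 9.68 and 9.65 FPKM in RNAi-Ctrl 1, 2 and 3. RNAi-GLAD 3 was its highest library and RNAi-GLAD 1 its lowest, and the 3 controls lay between. Lrrk has the lowest FPKM of the 7 genes, but its exons are long (8022 bp), so 1585 to 2287 fragments per library stood behind each value. Nmnat (3R, 24945237 to 24947400, plus strand) had 32.8, 31.5 and 34.0 FPKM in RNAi-GLAD 1, 2 and 3, against 32.1, 31.8 and 28.7 FPKM in RNAi-Ctrl 1, 2 and 3. As labelled the difference was 0.09 ± 0.07 (SE; adjusted p = 0.999), and in the libraries numbered 1 and 2 it was 0.01 ± 0.05 (adjusted p = 0.931, limma). For Lrrk the difference was -0.05 ± 0.08 as labelled (adjusted p = 0.999) and -0.11 ± 0.06 in the libraries numbered 1 and 2 (adjusted p = 0.327, limma). Exons of Lrrk share 126 bp with GluRIIE on the opposite strand, which was at 0.886 FPKM on average.

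As a group, 0 of the 7 genes were called in the 6 libraries as labelled, where limma called 0.0% of 9631 genes (0 genes, with 112, or 1.16%, at an unadjusted p under 0.05 and a smallest adjusted p of 0.999). The labelled groups did not overlap for 0 of the 7, against 4.0% of all tested genes. For 6 of the 7 the 95% interval of the difference lay within 1 log2 unit of 0, as it did for 92.3% of all tested genes. In the libraries numbered 1 and 2, 1 of the 7 was called, iPLA2-VIA, where 5.45% of the 9661 tested genes were (396 genes or 4.1% higher and 131 genes or 1.36% lower in RNAi-GLAD), so the number of called members was near the background. Groups of 2 did not overlap for 6 of the 7, against 56.5% of all tested genes, and Nmnat was the exception. In these 4 libraries 5 of the 7 had negative differences, against 45.3% of all tested genes. The median difference of the 7 was 0.0062 in the 6 libraries, against 0.012 over all tested genes, and -0.079 in the 4 libraries, against 0.022.

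For 6 of the 7 genes, again all but Nmnat, RNAi-GLAD 3 minus RNAi-Ctrl 3 had the opposite sign to the difference in the libraries numbered 1 and 2, as it had for 75.1% of all tested genes. The size of these differences in the libraries numbered 3 ran from 0.06 for TBPH to 0.24 for Nmnat among the 6 genes other than iPLA2-VIA. In bulk tissue fewer cells of a type and less RNA per cell cannot be told apart. Of the 15 tested neuron markers, 15 had negative differences in the 4 libraries (median -0.11, 0 called). So had 11 of 12 glia markers (median -0.11, GLaz called lower), 10 of 11 muscle markers (median -0.06, 0 called) and 10 of 14 photoreceptor markers (median -0.04, 0 called). Of all tested genes, 45.3% were negative there. As labelled, 14 of 15 neuron (median -0.07), 8 of 12 glia (-0.04) and 10 of 14 photoreceptor markers (-0.01) were negative. The muscle markers turned, with 10 of 11 positive as labelled (median 0.05). Testis and accessory gland markers had 10 of 13 positive differences in the 4 libraries (median 0.15, topi called lower). As labelled, 0 of the 13 were positive (median -0.61). The summed level of these testis and accessory gland markers was uneven within groups. It was 119, 2.16 and 11.2 FPKM in RNAi-GLAD 1, 2 and 3, against 11.7, 61.3 and 86.4 FPKM in RNAi-Ctrl 1, 2 and 3. The summed level of the neuron markers was 1868 and 1924 FPKM in RNAi-GLAD 1 and 2, against 2087 and 2046 FPKM in RNAi-Ctrl 1 and 2, and it was 1879 FPKM in RNAi-GLAD 3 and 1838 FPKM in RNAi-Ctrl 3. In the 4 libraries Appl, Atx2 and Lrrk, each at -0.11, were near the medians of the neuron and glia markers. The part of cell content in these values was not tested. Of the 10 tested fat body markers, 5 had positive and 5 negative differences in the 4 libraries (median 0.02). In these 4 libraries 3 were called higher, where 4.1% of all tested genes were. The 3 were fit (2.25 ± 0.18), Apoltp (0.80 ± 0.07) and Lsd-1 (0.49 ± 0.07). The summed level of that list was 1206, 1387 and 1217 FPKM in RNAi-GLAD 1, 2 and 3. It was 1687, 1144 and 1553 FPKM in RNAi-Ctrl 1, 2 and 3. Yp1, a yolk protein gene of that list, was at 296 FPKM in RNAi-Ctrl 1 and at 0.735 to 3.28 FPKM in the others. The part of this list in the result for iPLA2-VIA was not tested.

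**Figure D3:**
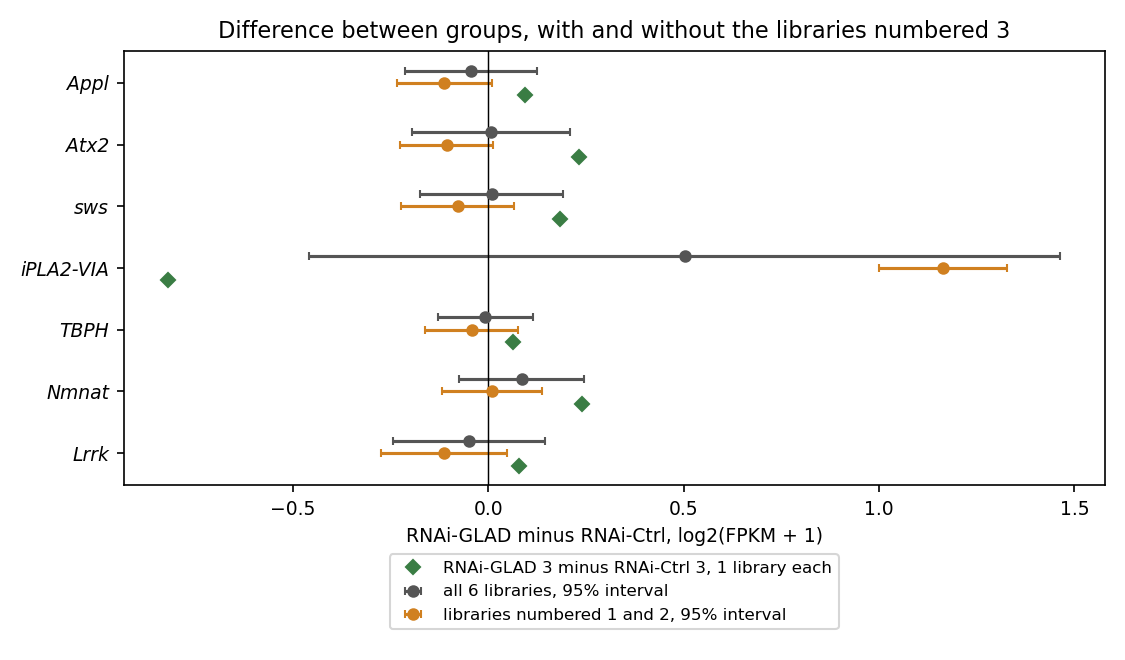
Difference of each gene on the log2(FPKM + 1) scale, RNAi-GLAD minus RNAi-Ctrl, over all 6 libraries (grey) and the 4 libraries numbered 1 and 2 (orange), each with its 95% interval, and in the single pair numbered 3 (green diamonds). The interval leaves out 0 for iPLA2-VIA in the 4 libraries, and the pair numbered 3 lies on the other side of 0 from the 4 libraries for 6 of 7 genes.

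The same comparison was made for 136 other tested genes of the pathways around the 10, in 7 lists. In the 6 libraries limma called 0 of them, and the list medians ran from -0.04 to 0.04. The values that follow are of the libraries numbered 1 and 2. In the libraries numbered 1 and 2, 8 were higher and 3 lower in RNAi-GLAD, which is 8.09% beside the 5.45% of all tested genes, and the median difference was -0.0036. All 11 had the opposite sign in the libraries numbered 3, as had 99.1% of the 527 called genes.

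Among the 18 tested genes of amyloid precursor protein processing, Appl included, 2 rose, 1 fell and 15 were not called (median -0.04). The gene lower in RNAi-GLAD was Nep3, a metallopeptidase of the neprilysin family, which in mammals degrades amyloid peptides. It had 18.5 and 19.3 FPKM in RNAi-GLAD 1 and 2, against 26.6 and 26.7 FPKM in RNAi-Ctrl 1 and 2 (-0.47 ± 0.05, adjusted p = 0.0235). Nep4 of the same family was higher (0.36 ± 0.06, adjusted p = 0.0494, limma), and Nep1 (0.02) and Nep2 (-0.03) were not called. Nct (nicastrin), the substrate-binding subunit of gamma-secretase, rose to 13.4 and 12.5 FPKM in RNAi-GLAD 1 and 2, against 9.88 and 9.45 FPKM in RNAi-Ctrl 1 and 2 (0.39 ± 0.06, adjusted p = 0.0491). aph-1, a further subunit, was not called at 0.30 ± 0.06 (adjusted p = 0.0740, limma).

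Of the 21 tested genes for tau kinases, phosphatases and microtubule proteins, 2 rose and 1 fell (median -0.02). HDAC6, a tubulin deacetylase, was at 87.0 and 92.0 FPKM in RNAi-GLAD 1 and 2, against 116 and 124 FPKM in RNAi-Ctrl 1 and 2 (-0.42 ± 0.06, adjusted p = 0.0417, limma). The dynactin subunit DCTN1-p150 (0.35 ± 0.05, adjusted p = 0.0472) and the kinesin motor subunit Khc (0.27 ± 0.04, adjusted p = 0.0486, limma) were higher, both close to the threshold. The microtubule-severing enzyme spas was not called (0.30 ± 0.06, adjusted p = 0.0639, limma).

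The RNA-binding proteins of ribonucleoprotein granules, TBPH and Atx2 included, had 0 calls among 20 tested genes by limma, with 10 positive and 10 negative differences (median 0.0025). The smallest p were those of the translational regulators orb2 (-0.17 ± 0.04) and pum (-0.17 ± 0.05). The 14 genes of NAD synthesis and axon degeneration, Nmnat included, also had 0 calls (median 0.02). Nadsyn, which makes NAD from its acid precursor, was at -0.18 ± 0.07, and hiw, a ubiquitin ligase that lowers Nmnat protein, at -0.29 ± 0.12.

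Among 22 tested Parkinson disease gene orthologues, Lrrk included, 2 rose and 0 fell (median 0.02). Rab10, whose mammalian counterpart is a substrate of LRRK2, was at 55.3 and 57.0 FPKM in RNAi-GLAD 1 and 2, against 43.0 and 43.9 FPKM in RNAi-Ctrl 1 and 2 (0.36 ± 0.05, adjusted p = 0.0341). Vps13, a lipid transfer protein at membrane contacts, was higher by 0.51 ± 0.08 (adjusted p = 0.0460, limma). Of the 18 tested phospholipase and phospholipid synthesis genes, iPLA2-VIA rose and Pcyt2 fell, and 15 had negative differences (median -0.10). Pcyt2, which makes the activated head group for phosphatidylethanolamine, had 32.6 and 34.1 FPKM in RNAi-GLAD 1 and 2, against 47.3 and 47.5 FPKM in RNAi-Ctrl 1 and 2 (-0.50 ± 0.05, adjusted p = 0.0221). The last list, other orthologues of disease genes, had 2 higher and 0 lower of 30 (median 0.09). The 2 were GlyRS (0.39 ± 0.04, adjusted p = 0.0272), which charges glycine tRNA, and Sod1 (0.41 ± 0.06, adjusted p = 0.0412, limma), the cytosolic superoxide dismutase.

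**Figure D4:**
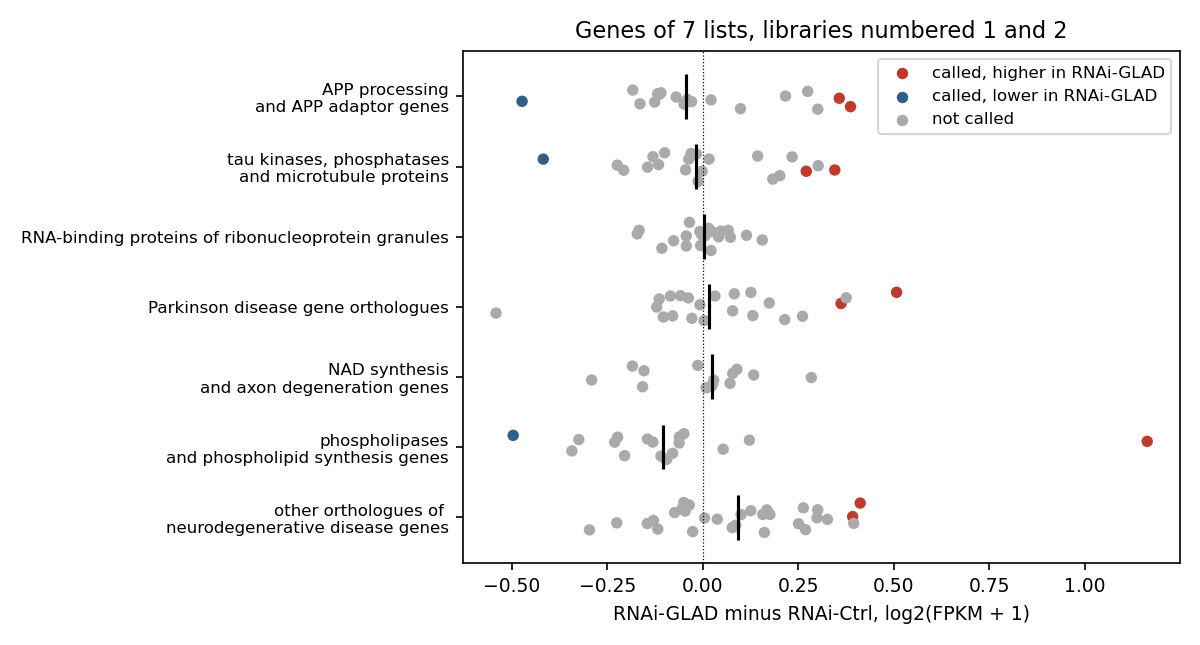
Difference between RNAi-GLAD 1 and 2 and RNAi-Ctrl 1 and 2 on the log2(FPKM + 1) scale for each tested gene of the 7 lists (points, spread vertically for legibility), with a black line at the list's median. iPLA2-VIA, at 1.16 in the phospholipid list, lies beyond every other point, and the list medians run from -0.10 to 0.09.

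The genes whose profile over the 6 libraries was most like that of each member were found by Pearson's r on log2(FPKM + 1), as a description with no test. For iPLA2-VIA these were Gtpx (r = 0.999), a glutathione peroxidase-like enzyme, and CG17574 (r = 0.999), and 8.0% of tested genes exceeded r = 0.9. For Appl they were CG2736 and CG14329 (both r = 0.997), and 3.4% of tested genes exceeded 0.9. HUWE1 led for TBPH (r = 0.998), Asap for Atx2 (0.993), fabp for Lrrk (0.995) and fid for sws (0.996). Nmnat had the fewest like genes, 0.301% over 0.9, with FBgn0034656 first (r = 0.966) and CG2157 second (r = 0.963). With 6 libraries that fall into sets, such values are common across a table of this size.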

How the data were processed

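The authors deposited 1 table of FPKM values for 6 libraries (150 bp paired-end reads of NEBNext libraries, per the labels' protocols). The submitters' processing notes list TopHat, BDGP6 and dm6, without versions. No source used here gives the counter, strand setting or annotation. FlyBase identifiers were matched to symbols for 15002 rows, and 680 FlyBase identifiers and 204 other rows had none. Coordinates, exon lengths and overlaps are from the Ensembl release 115 annotation of BDGP6. Fragments per gene were estimated from FPKM, exon length and the total at which the most low values fell within 0.02 of whole fragments, and such estimates cover counting error only.

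Values were tested as log2(FPKM + 1) for genes with a mean of at least 1 FPKM, in R 4.3.3 with limma 3.58.1 (lmFit, eBayes with a mean-variance trend), two-sided, Benjamini-Hochberg over all genes tested, at a threshold of 0.05. The pseudocount understates changes of low genes. In simulated data with 6 libraries the fit recovered 74% of 2-fold and 95% of 4-fold changes, with 8 false calls. With 4 libraries it recovered 68% and 82%, with 3 false calls. The simulated spread came from the libraries numbered 1 and 2 alone, so it does not show what the comparison as labelled can detect. The replicate number was not used as a block. The 10 genes, the lists, the tests and the use of the libraries numbered 1 and 2 were chosen with earlier results of these data known. Genes named were the members, up to 2 most like genes each (1 given for some) and, from each list, those of the 4 smallest p in the 4-library fit that are called or nearest to it. Neighbours and overlapping genes were named by position (the 2 nearest and the called ones). The genes ninaE, elav, Nep1, Nep2, Yp1, CG32641, sordd2 and lncRNA:CR40469 were named after their values were seen. The list around Appl also holds fne, an RNA-binding protein outside that pathway. Figures were drawn with matplotlib 3.10.9. Sequence comparisons that had been planned were not made.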

Additional observations from a re-analysis of the deposited data

How the results depend on the processing

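Alternatives were pseudocounts of 0.1 and 0.5, no filter or a mean of at least 5 FPKM, median-of-ratios and quantile scaling, no trend, array weights, a replicate block, each library left out and both libraries of a number left out. As labelled, 0 genes and 0 members were called under each of these except without both libraries numbered 3, with 527 genes, 1 member (iPLA2-VIA, 1.16) and a member median of -0.08. In the 4 libraries, 527 genes became 254 without a filter and 165 without the trend; the range without each library was 1 to 329 genes and 0 to 1 members. The split of 396 higher and 131 lower became 328 and 176 after quantile normalization. The labels do not say that same-numbered libraries are paired, so the numbers were not taken to pair them. Their correlations of deviations were -0.354, -0.404 and -0.460 in the 6 libraries, and -0.356 in the 4 libraries. The values of the 6 libraries cannot tell whether numbers pair them, since both libraries numbered 3 went against their labels. With the replicate block there were 0 genes as labelled and 512 in the 4 libraries, iPLA2-VIA among them; with crossed numbers, a pairing chosen after seeing the data, there were 17 genes and 0 members (iPLA2-VIA at 1.16, adjusted p = 0.0604).

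Signs of uncalled members turned as follows, and the cause was not tested. As labelled, Atx2 was at -0.0082 with median-of-ratios scaling, -0.012 with quantile normalization, -0.077 with array weights and -0.11 without both libraries numbered 3. The values for sws under the same settings were -0.0058, -0.0095, -0.038 and -0.079. Appl was at 0.0040 without both libraries numbered 1, and TBPH at 0.0037 without both numbered 1 and 0.017 without both numbered 2. Without each library in turn TBPH ranged from -0.027 to 0.010, Atx2 from -0.068 to 0.047, Lrrk from -0.12 to 0.00061 and sws from -0.056 to 0.061. In the 4 libraries Nmnat was at -0.015 with median-of-ratios scaling, -0.039 with quantile normalization and -0.019 to 0.038 without each library. Groups of 2 libraries limit what the 4-library comparison can show.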
